A study of Mus musculus with 9 samples.

Results

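Interferon-stimulated genes are the genes that cells switch on after sensing an interferon, and 38 of them, listed by symbol, were followed across 9 RNA sequencing libraries of mouse cells labelled myeloid. All 38 were present among the 54532 genes of the deposited table, and 37 were abundant enough to be tested, out of 12289 genes tested in all. The libraries formed 3 groups of 3, with library letters A, B and C in each. The groups fl and Gr_1 carry the genotype label wild type, and the group KO carries the label SOCS3 KO. All mice were C57BL/6 aged 6 to 8 weeks, and the labelled source was white cells. The labels do not spell out the names fl and Gr_1, do not say how or in which cells Socs3 was removed, and leave unstated whether the 3 libraries of one group are 3 mice. The names fl, KO and Gr_1 therefore stand for the libraries labelled so, and each p-value reflects the spread between the samples at hand. In fl and Gr_1 this spread could be technical, and in KO library C may not be independent of A and B.

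Type I and type III interferons bind receptors coupled to the kinases JAK1 and TYK2, which activate transcription factors of the STAT family. The complex ISGF3, which holds STAT2 and IRF9, binds a DNA element called the interferon-stimulated response element (ISRE) and turns on genes whose products block viral replication. Type II interferon acts mainly through another element, the gamma-activated site (GAS). SOCS3 is a feedback inhibitor of JAK kinases, known best for limiting STAT3 activation below the receptors of IL-6 and G-CSF, and SOCS1 and USP18 are the better known brakes on interferon signalling.

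Levels are given as FPKM, fragments per kilobase of exon and M (mega) fragments, as deposited. The denominators in M that these values imply were not the recovered totals of the libraries. Total depth lay between 18.3 and 21.5 M recovered fragments per library. The 37 tested members rested on 25 to 5368 fragments in a library. The neutrophil marker sum (10 genes) was 63827 to 71044 FPKM in fl, 69737 to 100229 in KO and 169065 to 171983 in Gr_1. Granulocyte genes were thus present in all 9 libraries. S100a9, S100a8, Ngp and Camp were the largest parts of the sum, and S100a9, Ngp, Ltf and Camp overlapped between fl and KO. S100a8, Mmp9, Retnlg, Mmp8, Cxcr2 and Ly6g were each higher in all KO than in all fl libraries. Cxcr2 was at 6.02 to 6.87 FPKM in fl, 30.3 to 63.6 in KO and 247 to 265 in Gr_1. Mmp8 was at 17.2 to 23.7, 97.6 to 233 and 1126 to 1197 FPKM. The part of these genes in KO against fl was not tested. Lyz2, a lysozyme of myeloid cells, lay between 53.2 and 59.8 FPKM in KO against 8670 to 9998 in fl and 10486 to 10808 in Gr_1. Socs3 itself was not lower in KO, at 8.12 ± 1.25 FPKM against 3.76 ± 0.318 in fl and 35.5 ± 2.21 in Gr_1 (SD, n = 3 each). A value summed over the whole gene does not check the label where the deleted stretch is not given. The KO libraries also differed from each other in sex-linked RNA. Xist was at 0.0028 FPKM in KO A, 58.5 in KO B and 26.3 in KO C, while the sum of 4 Y-linked genes was 26.5, 0 and 14.2. KO A and KO B thus differed as samples of opposite sex would, and KO C held both kinds of transcript, at levels between those of KO A and KO B, and results that rest on these libraries are also given without them. All fl and Gr_1 libraries were like KO A, with Xist at 0 to 0.0104 FPKM and a Y-linked sum of 16.6 to 39.3. KO against fl and KO against Gr_1 thus also differed in sex-linked RNA, and its part in them was not tested.

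The sequence element that defines this response could be read in the promoters. RefSeq promoter sequences (build GRCm38.p6, from 250 bases before to 50 bases after each annotated start, 300 in all) were matched for 28 of the 38 members. The letters GAAANNGAAA, the core of the ISRE, or their reverse TTTCNNTTTC were found in 17 of these 28 members (60.7%), against 1079 of 27025 genes in the whole table (3.99%), or 1131 of 32851 promoters (3.44%). The palindrome TTCNNNGAA, the core of a GAS, was found in 8 of 28 members (28.6%), against 9.55% of all genes, or 2726 promoters (8.30%). A match describes letters in this window and is not a measured binding site. The 8 stretches below are shown because they hold a match upstream of the gene and their genes cover the different behaviours described further on. Members without a match, among them Cmpk2, Oasl2 and Trim25, are not shown. Rsad2, Isg15, Ifit1 and Oas3 were higher in Gr_1 than in fl, Bst2 and Gbp3 were lower, Oas1a was not called in any comparison, and Ifit3 had the widest spread between KO libraries. Each is read 5′ to 3′ on the gene's own strand and lies upstream of its start, with ISRE matches in capitals.
Rsad2 (chr12:26456538-26456597, minus strand): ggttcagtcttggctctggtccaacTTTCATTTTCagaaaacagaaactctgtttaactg
Isg15 (chr4:156200850-156200909, minus strand): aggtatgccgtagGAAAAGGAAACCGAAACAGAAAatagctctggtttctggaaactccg
Ifit1 (chr19:34640779-34640838, plus strand): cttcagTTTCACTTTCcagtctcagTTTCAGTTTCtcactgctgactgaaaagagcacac
Ifit3 (chr19:34583373-34583441, plus strand): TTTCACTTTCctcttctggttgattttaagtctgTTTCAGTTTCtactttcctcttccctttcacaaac
Oas3 (chr5:120777700-120777759, minus strand): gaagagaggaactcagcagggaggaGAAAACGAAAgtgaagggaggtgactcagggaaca
Oas1a (chr5:120907526-120907585, minus strand): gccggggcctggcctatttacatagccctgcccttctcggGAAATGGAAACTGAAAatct
Bst2 (chr8:71537562-71537621, minus strand): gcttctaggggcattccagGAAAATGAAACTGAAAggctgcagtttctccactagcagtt
Gbp3 (chr3:142559966-142560025, plus strand): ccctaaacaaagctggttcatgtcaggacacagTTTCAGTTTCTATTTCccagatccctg

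Overlapping matches run together in these lines. The Isg15 stretch holds 3 matches that begin 78, 72 and 66 bases before the start, and Bst2 and Gbp3 hold 2 each. Matches were found among members of each direction of change. Among members with a promoter entry, the letters were found in 6 of 11 that were higher in Gr_1 than in fl, in both of the 2 that were lower, and in 9 of 14 that were not called. Of the members called in KO against fl, Trim25 alone had an entry, without a match, and the letters were found in 17 of 26 not called.

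The members spanned a wide range of levels, with Ifi27l2a as the most abundant member in each group. Its mean was 297 ± 51.7 FPKM in fl, 129 ± 59.3 in KO and 176 ± 36.6 in Gr_1 (SD, n = 3 each), and the median over tested members was 7.82, 7.62 and 9.53 FPKM. Bst2 came second in fl and KO at 47.9 and 37.8 FPKM, while Oas3 came second in Gr_1 at 40.0 FPKM. Ifi44 was the member left untested, at 0.0393 to 0.0529 FPKM in fl, 0.12 to 0.205 in KO and 0.0719 to 0.245 in Gr_1, on 5 to 25 fragments. The levels by library show both the spread of abundance and the offset between groups.

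**Figure D1:**
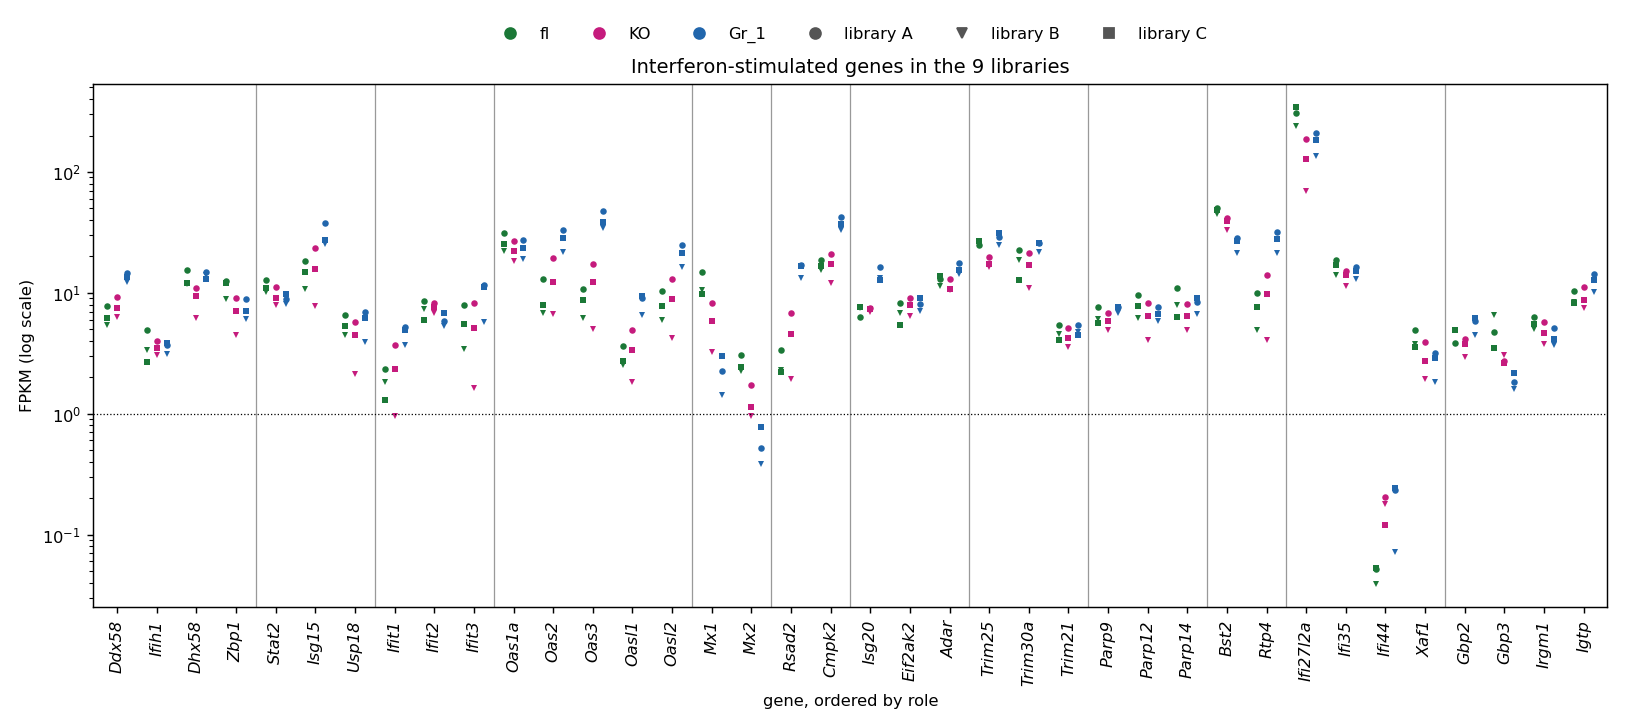
Levels of the 38 interferon-stimulated genes, as FPKM on a log axis, in each of the 9 libraries. Colour marks the group (green fl, magenta KO, blue Gr_1), the symbol marks the library letter (dot A, triangle B, square C), vertical lines separate roles, and the dotted line is at 1 FPKM. The Gr_1 points of Oas3 sit between 34.3 and 47.4, above all fl and KO points, and those of Mx1 sit between 1.43 and 3.0, below them.

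Within each group the members moved together from library to library. In KO, library A was above C and C above B for 36 of 37 members, the exception being Gbp3, against 33.6% of all tested genes. The same order held for 19 of 37 members in fl, against 7.82% of all genes, and for 22 of 37 in Gr_1, against 11.0%. It held in all 3 groups for 15 of 37 members, against 0.545% of all genes. Library B alone was the lowest of its group for 21 members in fl (31.0% of all genes), 36 in KO (42.1%) and 34 in Gr_1 (26.1%), and in all 3 groups for 20 (3.73%). In Gr_1 the 3 exceptions were Dhx58, Isg20 and Trim21. These are counts of an order seen in the data, chosen after the values were seen and with no test.

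The size of this shared offset was measured as the median over members of the difference from the group mean, on the log2(FPKM + 1) scale. It was 0.23, -0.12 and -0.04 in fl A, B and C, and 0.30, -0.31 and 0.05 in KO A, B and C. In Gr_1 it was 0.15, -0.20 and 0.08. Over all tested genes the median difference stayed between -0.01 and 0.02 in every library. Highest-to-lowest ratios within a group were accordingly wide, with a median over members of 1.42 in fl, 1.73 in KO and 1.35 in Gr_1, against 1.233, 1.2 and 1.163 over all genes. Ifit3, which encodes an RNA-binding antiviral protein, had the widest ratio in KO at 5.07, with 8.28 FPKM in KO A, 1.63 in KO B and 5.09 in KO C. Reads of Ifit3 can be shared with its near-identical neighbour Ifit3b, so that its level is uncertain.

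**Figure D2:**
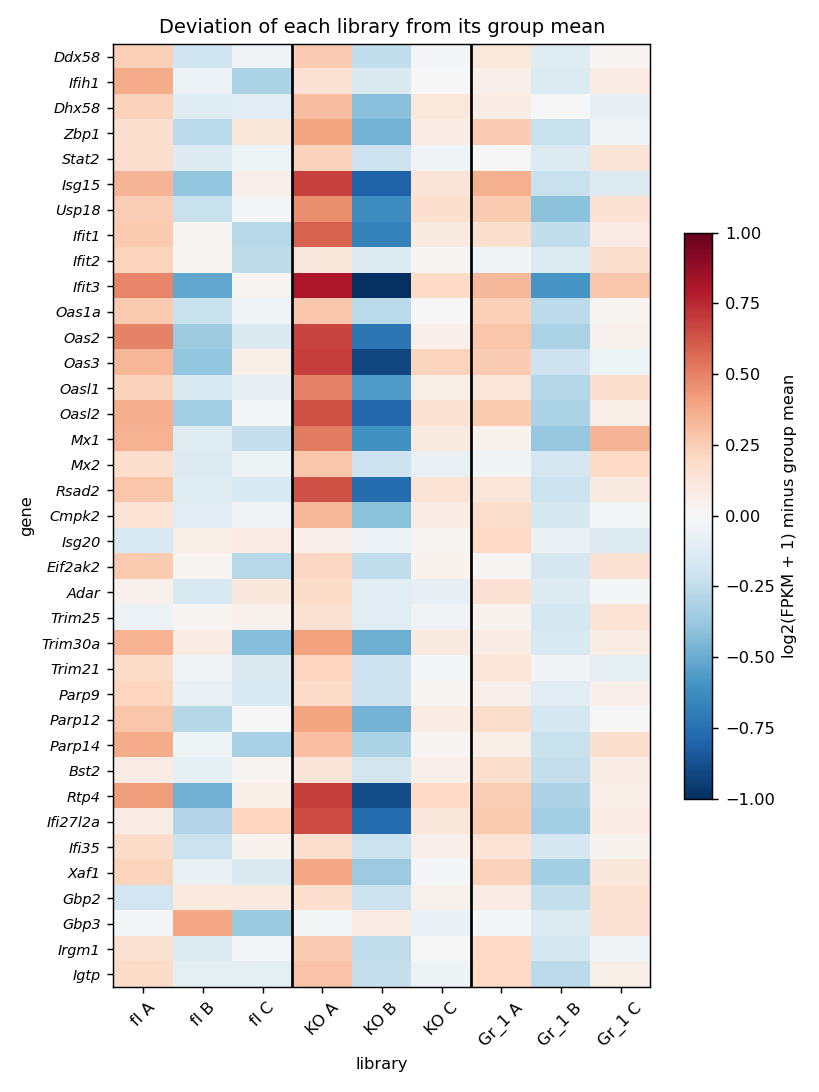
Heat map of the 37 tested members (rows) in the 9 libraries (columns), coloured by log2(FPKM + 1) minus the mean of the gene's own group on a scale from -1 to 1. Columns A are mostly above and columns B mostly below their group mean, with median differences of 0.30 in KO A and -0.31 in KO B.

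KO C lay between KO A and KO B for 36 of 37 members (61.5% of all genes), and within 15% of the mean of KO A and KO B for 36 of 37 (83.9% of all genes). Other measures also ran A above C above B in KO. The neutrophil marker sum was 100229 FPKM in KO A, 69737 in KO B and 82489 in KO C. The sum of 10 plasmacytoid dendritic cell markers, a list that includes Bst2, was 87.6, 62.7 and 79.6. Bst2, Spib and Ly6d were the largest parts of it, while Runx2, Tcf4, Ccr9, Pacsin1 and Klk1 did not follow the order. The monocyte marker sum was 944, 844 and 886 FPKM, the macrophage sum (8 genes) 129, 108 and 116, and the B cell sum 235, 182 and 202. The T cell sum, at 9.16, 10.1 and 10.3, did not follow the order. The NK cell marker sum ran the other way, at 129, 249 and 179 FPKM, as did Xist. Their part in the order of the members was not tested. In bulk RNA, fewer cells of a type and less RNA per cell cannot be told apart.

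The comparison of KO with fl set the libraries with the genotype label SOCS3 KO against those titled fl. By limma on log2(FPKM + 1), with p-values adjusted over all genes tested and a call at an adjusted p under 0.05, 0 of 37 members rose and 3 fell, namely the GTPase gene Mx2, the ubiquitin ligase gene Trim25 and the small membrane protein gene Ifi27l2a. That is 8.11% of the members, against 11.0% of all tested genes called in either direction (4.48% higher, 6.52% lower). At an unadjusted p under 0.05, 0 members were higher and 8 lower (21.6%, against 26.3% of all genes in either direction), and limma-voom on recovered fragments also called 0 higher. That fit called 7 lower, 18.9% of the members against 13.2% of all genes. The median log2 change was -0.14 over members and -0.01 over all genes, with 12 members above 0 and 25 below.

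Trim25 encodes a ligase that attaches ubiquitin chains to the RNA sensor RIG-I, and it lies on chr11:88999376-89020293 (GRCm38, plus strand). It was at 24.7, 26.1 and 26.6 FPKM in fl A, B and C, at 20.0, 16.4 and 17.4 in KO, and at 29.0, 24.9 and 31.2 in Gr_1. All KO libraries were below all fl and Gr_1 libraries. The mean was 1.44-fold lower in KO than in fl (17.9 ± 1.83 against 25.8 ± 0.981 FPKM, SD, n = 3 each), a log2 change of -0.51 ± 0.10 (SE, limma adjusted p = 0.0126). Without KO C the change was -0.49 with an adjusted p of 0.0588.

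Mx2 belongs to a pair of dynamin-like GTPase genes that restrict viruses, although both genes are known to be defective in laboratory strains such as C57BL/6, and the annotation lists Mx2 as a polymorphic pseudogene. Mx2 was at 3.03, 2.27 and 2.45 FPKM in fl, 1.74, 0.954 and 1.14 in KO, and 0.518, 0.381 and 0.778 in Gr_1. The 3 groups did not overlap, with fl highest and Gr_1 lowest. Against fl, Mx2 was 2.02-fold lower in KO, a log2 change of -0.66 ± 0.16 (SE, limma adjusted p = 0.0289). Mx1, its neighbour on chr16:97447035-97560900 (GRCm38, the span of both genes), showed the same order, at 14.9, 10.5 and 9.69 FPKM in fl, 8.26, 3.24 and 5.87 in KO, and 2.24, 1.43 and 3.0 in Gr_1. Its KO libraries were all below its fl libraries, but the log2 change of -0.96 ± 0.29 was not called (limma adjusted p = 0.0737). Without KO C the change of Mx2 was of about the same size, -0.62, with an adjusted p of 0.107, and without KO A that of Mx1 was -1.21 with an adjusted p of 0.0333.

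Ifi27l2a encodes a small interferon-induced membrane protein (chr12:103442167-103443680, GRCm38, minus strand), and reads can be shared with close relatives of the same family. It was at 309, 240 and 342 FPKM in fl, 188, 69.4 and 129 in KO, and 208, 136 and 184 in Gr_1. All KO and Gr_1 libraries were below all fl libraries, and the KO and Gr_1 libraries overlapped. The mean was 2.31-fold lower in KO than in fl, a log2 change of -1.30 ± 0.33 (SE, limma adjusted p = 0.0372). The call was kept in only 3 of the 9 fits that left out 1 library each, and for Mx2 in 4 of 9.

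In 7 of 37 members (18.9%) the KO libraries were all below the fl libraries, and in 0 all above, against 17.9% and 13.5% of all genes. Besides the 3 called genes and Mx1 these were Dhx58, Bst2 and Gbp3. Dhx58 encodes LGP2, a regulator of the RNA sensors RIG-I and MDA5. Its FPKM was 15.4, 11.8 and 12.0 in fl, 10.9, 6.18 and 9.34 in KO, and 14.7, 13.9 and 13.1 in Gr_1, with all KO libraries below all others. Its change against fl was -0.54 ± 0.18 (SE) with a limma adjusted p of 0.0892.

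Isg15 and Rsad2 varied more between the KO libraries than between the fl libraries. Isg15, a ubiquitin-like modifier that is attached to proteins after interferon exposure, was at 18.3, 10.7 and 14.9 FPKM in fl and at 23.6, 7.73 and 15.7 in KO. KO A was above and KO B below all fl libraries, and the log2 change was -0.00 ± 0.35 (SE, limma adjusted p = 0.999). Rsad2, the gene of the antiviral enzyme viperin, was at 3.33, 2.29 and 2.22 FPKM in fl and at 6.85, 1.95 and 4.53 in KO, so that KO A and KO C were above and KO B below all fl libraries. Its change of 0.49 ± 0.31 was not called (limma adjusted p = 0.348). It was 0.88 and called without KO B (adjusted p = 0.027), and 0.17 without KO A. With KO B and KO C left out, KO was the single library KO A, assumed to vary like the other groups. The log2 changes were then -0.38 for Mx2, -0.35 for Trim25 and -0.64 for Ifi27l2a, with adjusted p from 0.184 to 0.317, and the median over members was 0.07, with 24 members above 0 and 13 below.

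The comparison of Gr_1 with fl set the 2 groups labelled wild type side by side. In Gr_1, 13 members rose, among them 4 of 5 OAS genes, Rsad2 and its neighbour Cmpk2, Rtp4 and Isg20, and 4 fell, namely Mx1, Mx2, Bst2 and Gbp3. The 17 called members are 45.9% of 37, against 61.4% of all tested genes (members higher 35.1% against 30.0%, lower 10.8% against 31.4%). The median log2 change was 0.13 over members and -0.03 over all genes. The libraries of the groups did not overlap in 20 members (54.1%, against 67.5% of all genes), with 12 above fl and 8 below, against 32.7% and 34.8% of all genes.

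The largest change belonged to Rsad2, which with Cmpk2, a mitochondrial nucleotide kinase gene, occupies chr12:26442746-26479837 (GRCm38), with 12752 bases between them. Rsad2 was at 17.0, 13.3 and 16.7 FPKM in Gr_1, against 2.22 to 3.33 in fl. The groups lay far apart, and the mean was 6.01-fold higher in Gr_1 (15.7 ± 2.05 against 2.61 ± 0.624 FPKM, SD, n = 3 each), a log2 change of 2.21 ± 0.31 (SE, limma adjusted p = 0.000288). Cmpk2 was at 18.7, 15.5 and 16.5 FPKM in fl, 20.96, 12.1 and 17.4 in KO, and 42.4, 33.2 and 37.0 in Gr_1. Gr_1 alone stood apart, 2.22-fold above fl (log2 change 1.10 ± 0.18, SE, limma adjusted p = 0.000646).

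The OAS genes encode enzymes that sense double-stranded RNA and make the messenger that activates RNase L, and Oasl1 and Oasl2 encode relatives of them. Oas3 was at 10.8, 6.16 and 8.73 FPKM in fl, 17.3, 5.04 and 12.2 in KO, and 47.4, 34.3 and 38.4 in Gr_1. All Gr_1 libraries were above the others, 4.67-fold over fl in the mean (log2 change 2.12 ± 0.36, SE, limma adjusted p = 0.001). Oas2 was at 12.96, 6.74 and 7.95 FPKM in fl, 19.3, 6.66 and 12.2 in KO, and 33.3, 21.8 and 28.2 in Gr_1. Again only Gr_1 stood clear, with a log2 change of 1.52 ± 0.35 against fl (limma adjusted p = 0.00462).

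Oasl1, which is known to restrain translation of Irf7 RNA, was at 3.61, 2.53 and 2.72 FPKM in fl, 4.90, 1.82 and 3.38 in KO, and 9.09, 6.59 and 9.41 in Gr_1. Oasl2 was at 10.4, 6.00 and 7.79 FPKM in fl, 12.9, 4.21 and 8.88 in KO, and 24.8, 16.3 and 21.4 in Gr_1. Both had all Gr_1 libraries above all others. Their log2 changes against fl were 1.24 ± 0.25 (limma adjusted p = 0.00239) and 1.27 ± 0.34 (limma adjusted p = 0.00968). Oas1a, in the same chromosome 5 cluster as Oas2 and Oas3, did not pass the test, at 26.4 ± 4.73 FPKM in fl and 23.2 ± 4.17 in Gr_1 (SD, n = 3 each). Its log2 change was -0.18 with a limma adjusted p of 0.415, and reads can be shared with its close copies.

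Rtp4, which encodes a Golgi chaperone of cell surface receptors, was at 9.96, 4.88 and 7.61 FPKM in fl, 14.1, 4.06 and 9.73 in KO, and 31.9, 21.5 and 27.9 in Gr_1. The Gr_1 libraries were clear of all others, 3.62-fold above fl (log2 change 1.75 ± 0.38, SE, limma adjusted p = 0.00349). Isg20 encodes a 3′ to 5′ exonuclease of RNA. It was at 6.35, 7.54 and 7.65 FPKM in fl, 7.55, 6.92 and 7.32 in KO, and 16.2, 13.4 and 12.7 in Gr_1. It had the tightest KO libraries of all tested members, a highest-to-lowest ratio of 1.09, and rose 1.96-fold in Gr_1 against fl (log2 change 0.88 ± 0.10, SE, limma adjusted p = 9.71e-05).

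Ddx58, the gene of the RNA sensor RIG-I (chr4:40203773-40239828, GRCm38, minus strand), was at 7.72, 5.46 and 6.22 FPKM in fl, 9.24, 6.26 and 7.53 in KO, and 14.5, 12.3 and 13.6 in Gr_1. All Gr_1 libraries were above all others, with a log2 change of 0.96 ± 0.15 against fl (SE, limma adjusted p = 0.000478). The other RNA sensor of the family, Ifih1 (MDA5), was at 3.64 ± 1.14 FPKM in fl and 3.55 ± 0.36 in Gr_1 (SD, n = 3 each, limma adjusted p = 0.983).

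The remaining 4 members that rose had adjusted p-values between 0.0159 and 0.0449. Isg15 was at 38.1, 25.2 and 27.1 FPKM in Gr_1, all above the fl libraries, with a log2 change of 1.001 ± 0.35 (SE, limma adjusted p = 0.034). Ifit1, of the family that binds viral RNA ends, was at 2.36, 1.83 and 1.30 FPKM in fl, 3.71, 0.952 and 2.32 in KO, and 5.21, 3.69 and 4.89 in Gr_1. Its log2 change was 0.99 ± 0.29 (limma adjusted p = 0.0159), with the Gr_1 libraries above all fl libraries. Adar, an enzyme gene of A-to-I RNA editing, was at 13.1, 11.3 and 13.8 FPKM in fl, 13.1, 10.5 and 10.7 in KO, and 17.5, 14.3 and 15.5 in Gr_1. Igtp, of the immunity-related GTPases, was at 10.3, 8.34 and 8.29 FPKM in fl, 11.2, 7.53 and 8.64 in KO, and 14.3, 10.1 and 12.9 in Gr_1, so that the groups overlapped. The log2 change of Adar was 0.29 (limma adjusted p = 0.0444) and that of Igtp 0.42 (limma adjusted p = 0.0449). With every column scaled to the same sum, the call was lost for all 4, and Adar turned to -0.09.

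The members that fell were led by the Mx pair. Mx1 was 5.27-fold lower in Gr_1 than in fl (2.22 ± 0.788 against 11.7 ± 2.82 FPKM, SD, n = 3 each), a log2 change of -1.99 ± 0.29 (SE, limma adjusted p = 0.000406). Mx2 was 4.62-fold lower, with a log2 change of -1.20 (limma adjusted p = 0.000193). Bst2, also called tetherin, encodes a membrane protein that holds budding virions at the cell surface (chr8:71534255-71537456, GRCm38, minus strand). It was at 50.4, 44.8 and 48.3 FPKM in fl, 41.2, 33.1 and 39.1 in KO, and 28.3, 21.3 and 26.7 in Gr_1. The 3 groups did not overlap, and Gr_1 was 1.88-fold below fl (log2 change -0.89 ± 0.12, SE, limma adjusted p = 0.000219).

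Gbp3, a guanylate-binding protein gene, was at 4.70, 6.56 and 3.48 FPKM in fl, 2.74, 3.03 and 2.63 in KO, and 1.83, 1.60 and 2.16 in Gr_1. Its libraries fell in 3 separate ranges, and Gr_1 was 2.63-fold below fl (log2 change -1.02 ± 0.17, SE, limma adjusted p = 0.000875). Gbp2, which shares chr3:142560026-142638008 (GRCm38) with Gbp3, was at 3.85, 4.92 and 4.92 FPKM in fl, 4.16, 2.96 and 3.75 in KO, and 5.88, 4.51 and 6.20 in Gr_1. Its Gr_1 and fl libraries overlapped, and the log2 change of 0.23 was not called (limma adjusted p = 0.185). Guanylate-binding protein genes have close copies, so reads of both can be split between relatives.

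The PARP members, which encode ADP-ribosyltransferases or relatives of them, gave no call in any comparison. Parp14, the most abundant of the 3, was at 10.9, 7.94 and 6.34 FPKM in fl, 8.07, 4.93 and 6.44 in KO, and 8.36, 6.70 and 9.01 in Gr_1, with all 3 groups overlapping. The other members without a call in any comparison were Ifih1, Zbp1, Stat2, Usp18, Ifit2, Ifit3, Oas1a, Eif2ak2, Trim30a, Trim21, Ifi35, Xaf1 and Irgm1. Their group means ranged from 2.63 FPKM for Xaf1 in Gr_1 to 26.4 for Oas1a in fl. Usp18, the protease gene that removes ISG15 and restrains the type I receptor, was at 5.45 ± 1.06 FPKM in fl, 4.10 ± 1.81 in KO and 5.69 ± 1.54 in Gr_1 (SD, n = 3 each).

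**Figure D3:**
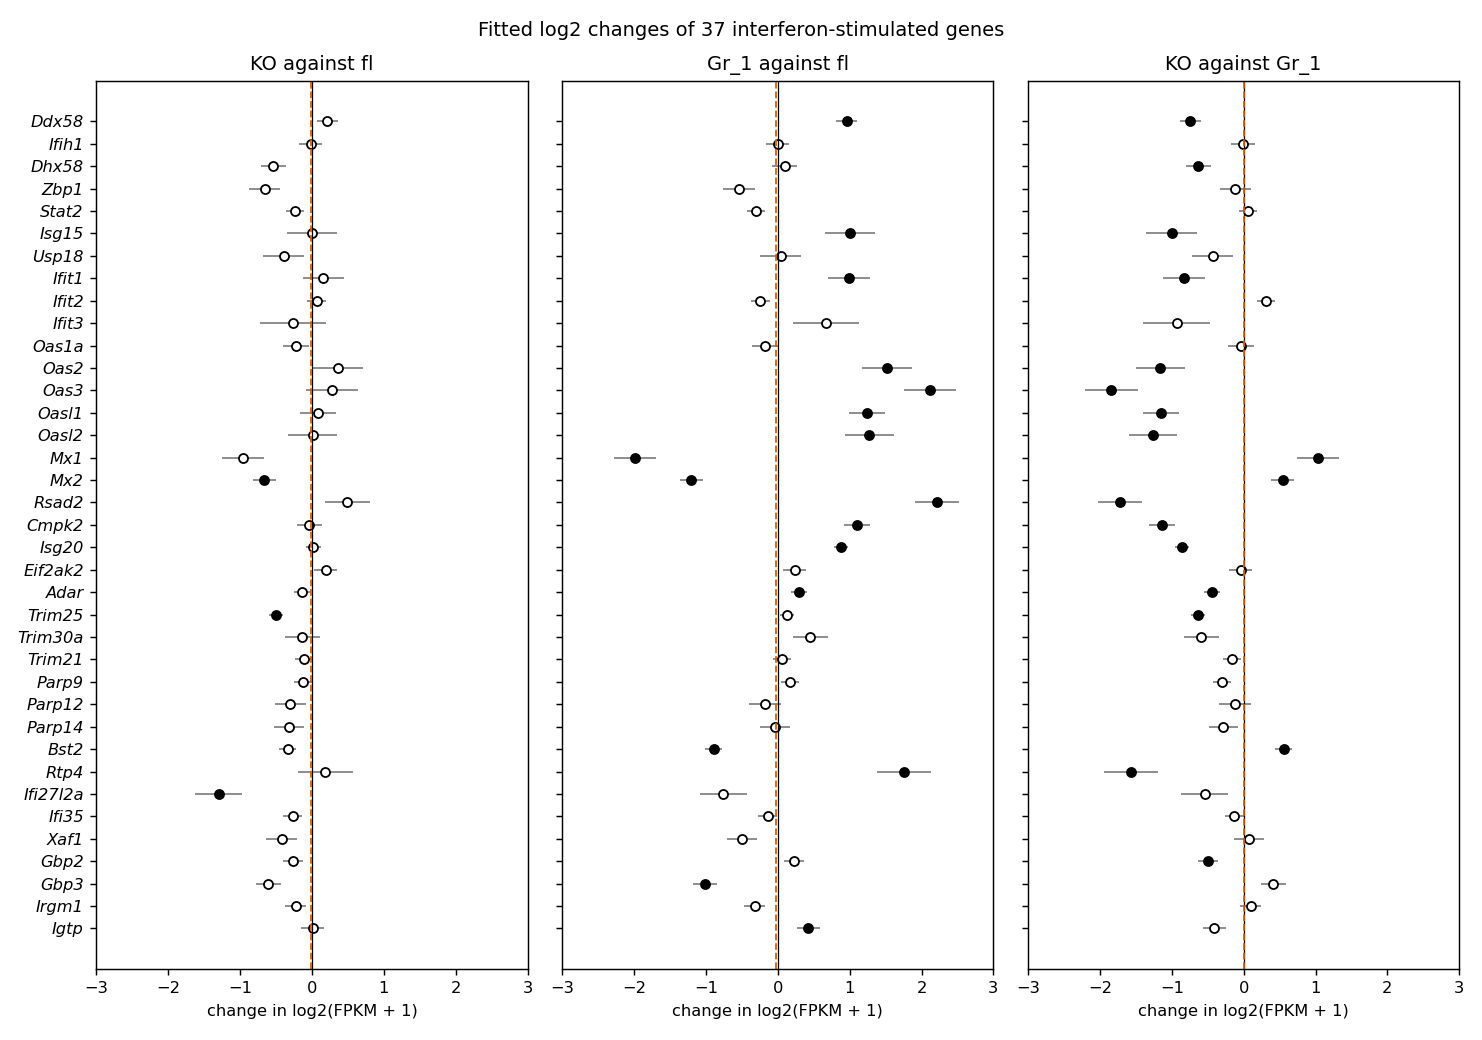
Fitted log2 change ± standard error of the 37 tested members in the 3 comparisons (panels), on the log2(FPKM + 1) scale. Filled points were called at a limma adjusted p under 0.05, and the dashed line is the median over all genes tested. In Gr_1 against fl, Rsad2 lies at 2.21 and Mx1 at -1.99, while in KO against fl 3 members are called, all lower.

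Scaling moved the balance of this comparison. The deposited values already held a scaling between libraries, since their denominators were not the recovered totals, and equal sums replaced it. The deposited values summed to 343079 to 386695 FPKM in the fl and KO libraries and to 475393 to 486796 in Gr_1, and equal sums shifted the median of all genes from -0.03 to -0.36 in Gr_1 against fl. Calls over members then went from 13 higher and 4 lower to 9 higher and 14 lower (62.2% in all, against 69.7% of all genes). The 9 were Ddx58, Oas2, Oas3, Oasl1, Oasl2, Rsad2, Cmpk2, Isg20 and Rtp4, and 13 of the 17 called members kept both call and sign. With equal sums set without the 10 most abundant genes, 10 members were higher and 9 lower (51.4%, against 62.3% of all genes). Measured against the median of all genes, 23 of 37 members lay above it under each of these 3 scalings.

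**Figure D4:**
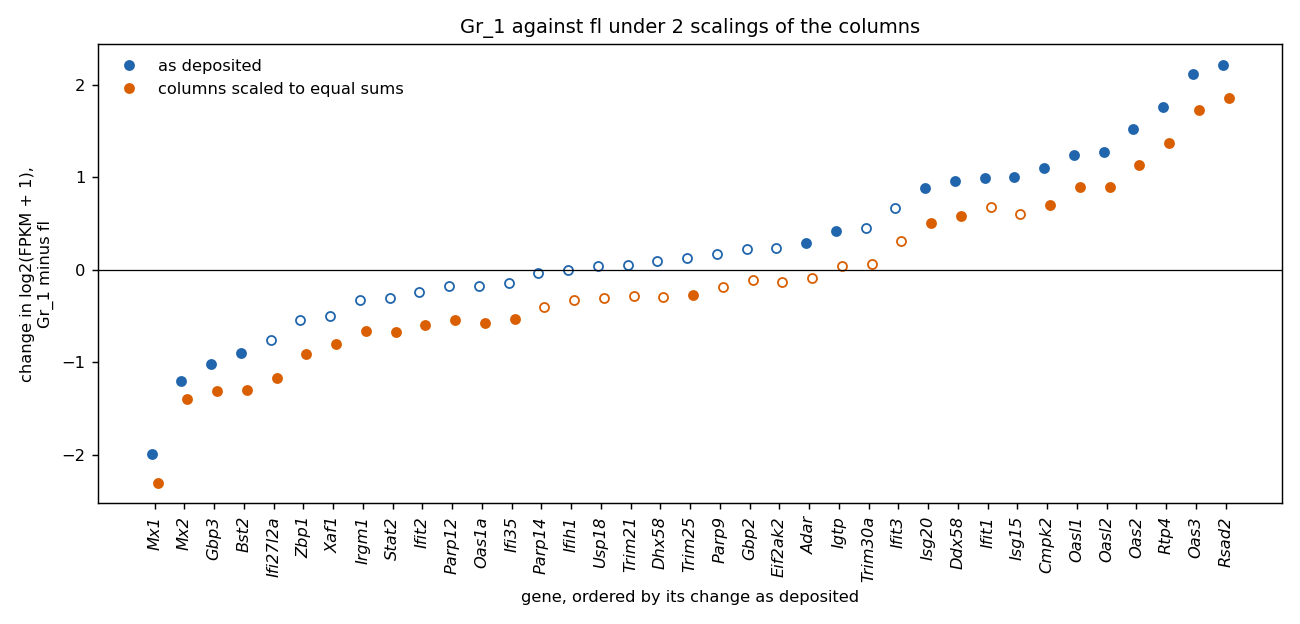
Log2 change of the 37 tested members in Gr_1 against fl with the values as deposited (blue) and with every column scaled to the same sum (orange), on the log2(FPKM + 1) scale, filled where called. Every point moves down, Rsad2 from 2.21 to 1.86 and Mx1 from -1.99 to -2.30, and 8 members change sign.

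Markers of other cells differed between these groups too. The sum of 10 monocyte markers was 1448 to 1629 FPKM in fl, 844 to 944 in KO and 501 to 571 in Gr_1, and the plasmacytoid dendritic cell sum was 75.2 to 96.1, 62.7 to 87.6 and 95.8 to 140. The B cell sum (6 genes) was 220 to 256, 182 to 235 and 564 to 627 FPKM, and the NK cell sum (6 genes) 138 to 200, 129 to 249 and 15.3 to 21.1. Nkg7 made up most of the NK cell sum, at 133 to 193 FPKM in fl and 118 to 226 in KO. The other NK cell markers, Klrk1, Gzma, Klrb1c, Ncr1 and Prf1, were each higher in all KO than in all fl libraries. Ncr1 was at 0.472 to 1.13 FPKM in fl, 2.03 to 4.36 in KO and 0.162 to 0.358 in Gr_1. Siglech, a defining plasmacytoid dendritic cell marker, was at 0.336 to 0.555 FPKM in fl, 1.28 to 1.95 in KO and 0.26 to 0.738 in Gr_1. T cell markers (8 genes) summed to 1.61 to 2.74 FPKM in fl, 9.16 to 10.3 in KO and 6.73 to 8.10 in Gr_1. Cd3d and Lat made up most of the Gr_1 sum, at 3.41 to 4.71 and 1.75 to 1.85 FPKM. Cd3e, Cd3g, Cd8a and Trac were each higher in all KO than in all fl libraries, but overlapped between fl and Gr_1. Cd3d, Lat and Cd5 were higher in all Gr_1 than in all fl libraries, and Cd4 overlapped. No gene of these lists was at 0 in every library, and their part in the differences between groups was not tested.

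The comparison of KO with Gr_1 shares its libraries with both comparisons above, so the values given there are read again. In KO, 3 members were higher, Mx1, Mx2 and Bst2, and 15 were lower. The lower members were led by Oas3, at 11.5 ± 6.15 FPKM in KO against 40.0 ± 6.69 in Gr_1, and Rsad2, at 4.44 ± 2.45 against 15.7 ± 2.05 (SD, n = 3 each). The 18 called members are 48.6% of 37, against 55.7% of all tested genes (8.11% against 26.7% higher, 40.5% against 28.9% lower). The median log2 change was -0.43 over members and 0.01 over all genes, with 8 members above 0 and 29 below.

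Oas3 was 3.48-fold lower in KO than in Gr_1, a log2 change of -1.84 ± 0.36 (SE, limma adjusted p = 0.00268), and Rsad2 3.53-fold lower, a log2 change of -1.72 ± 0.31 (limma adjusted p = 0.00156). The smallest adjusted p belonged to Isg20, which was 1.94-fold lower (log2 change -0.86 ± 0.10, limma adjusted p = 0.000179). The other members called lower were Cmpk2, Rtp4, Oas2, Oasl1, Oasl2, Ddx58, Dhx58, Isg15, Ifit1, Adar, Trim25 and Gbp2. Of the 3 called higher, Mx1 was 2.60-fold above Gr_1 (log2 change 1.03 ± 0.29, SE, limma adjusted p = 0.0154), Mx2 2.29-fold and Bst2 1.48-fold (log2 change 0.56 ± 0.12, limma adjusted p = 0.00384). The libraries of the groups did not overlap in 21 members (56.8%, against 68.2% of all genes), with KO above Gr_1 in 5 and below in 16, against 33.6% and 34.6% of all genes. Trim25 and Dhx58 were lower in KO than in both other groups in every library, although for Dhx58 only the comparison with Gr_1 was called (log2 change -0.63 ± 0.18, limma adjusted p = 0.014). With equal column sums the changes against Gr_1 were -0.23 for Dhx58 (adjusted p = 0.258) and -0.21 for Trim25 (adjusted p = 0.0663).

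With equal column sums, 7 members were called higher and 7 lower in KO against Gr_1 (37.8%, against 67.6% of all genes), and the median over members was -0.03 against 0.36 over all genes. The calls lost were those of Ddx58, Dhx58, Isg15, Ifit1, Oas2, Adar, Trim25 and Gbp2. With KO A as the only KO library, 8 members were called (21.6%, against 27.5% of all genes) and the median was -0.11. Oas3, Rsad2, Cmpk2, Isg20 and Bst2 were called in the same direction in all 19 alternatives.

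The other parts of the pathway were read from a list of 45 ligands, receptors, kinases, factors, sensors and inhibitors, of which 34 were tested. Interferon genes themselves were near or at the limit of detection. Ifna1, Ifna2, Ifna4, Ifna5, Ifne and Ifnl3 had 0 fragments in all 9 libraries. Ifnb1 had 2 fragments in KO B, 1 in KO C and 0 elsewhere. Ifng, the type II interferon gene, had 15, 8 and 8 fragments in fl, 6, 22 and 14 in KO, and 0, 1 and 4 in Gr_1. For a gene with 1 kilobase of exon, a count of 0 allows up to 3 fragments, or 0.136 to 0.187 FPKM depending on the library, and this covers counting error only.

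In KO against fl, 2 of the 34 pathway genes rose and 8 fell, 29.4% against 11.0% of all genes. The 2 that rose were Socs3 and Ifnlr1, the type III interferon receptor chain, at 9.71 ± 2.85 FPKM in KO against 5.07 ± 0.289 in fl (SD, n = 3 each, log2 change 0.79 ± 0.16, SE, limma adjusted p = 0.0152). The 8 that fell were the receptor chains Ifnar2 and Ifngr1, the kinase Tyk2, the factors Irf5 and Irf8, and the sensing genes Mavs, Tmem173 (STING) and Tlr9. The largest of these changes was in Irf5, which drives inflammatory cytokine genes in macrophages, at 84.9 ± 1.12 FPKM in fl and 33.5 ± 4.69 in KO (log2 change -1.33 ± 0.11, SE, limma adjusted p = 0.000456). Irf8, needed for monocyte and dendritic cell development, went from 24.6 ± 1.76 to 14.1 ± 1.72 FPKM (log2 change -0.76, limma adjusted p = 0.00174), and Tlr9, a sensor of DNA in endosomes, from 9.78 ± 1.17 to 4.50 ± 1.42 (log2 change -1.001, limma adjusted p = 0.0184). Tyk2 went from 21.3 ± 1.60 to 14.7 ± 0.785 FPKM (log2 change -0.51, limma adjusted p = 0.00307), and Mavs, the adaptor of RIG-I and MDA5, from 5.01 ± 0.285 to 3.24 ± 0.205 (log2 change -0.50, limma adjusted p = 0.00769). The other called genes were Tmem173, with means of 23.4 and 15.9 FPKM, Ifngr1, with 99.3 and 77.0, and Ifnar2, with 28.4 and 22.6. Of the 9 fits that left out 1 library each, Ifnar2 was called in 1, Ifngr1 in 4, and Tlr9 and Ifnlr1 in 7, and the others in all 9. With KO A as the only KO library, Socs3, Ifnlr1, Irf5 and Irf8 remained called. Monocyte markers, a list that includes Irf8, moved with these, as given above. The other genes of that list were each lower in all KO than in all fl libraries, and their part was not tested.

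Stat2 and Irf9, which encode parts of ISGF3, were not called in KO against fl. Stat2 was at 11.2 ± 1.34 FPKM in fl and 9.39 ± 1.59 in KO, and Irf9 at 15.6 ± 1.15 and 12.9 ± 2.67 (SD, n = 3 each). Irf7, the factor that amplifies interferon production, had the library pattern of the members, at 22.8, 14.7 and 19.7 FPKM in fl, 20.2, 7.42 and 13.6 in KO, and 27.6, 19.4 and 25.9 in Gr_1. Library A was highest and B lowest in each group. Of all 34 tested pathway genes, 2 had the order A above C above B in all 3 groups.

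In Gr_1 against fl, 14 pathway genes rose and 10 fell (70.6%, against 61.4% of all genes). With equal column sums 6 rose and 15 fell (61.8%, against 69.7% of all genes). Ifnlr1 was 6.92-fold higher in Gr_1, at 35.1 ± 1.04 FPKM (SD, n = 3, log2 change 2.57 ± 0.16, SE, limma adjusted p = 4.21e-06). Ifngr1, the ligand-binding chain of the type II receptor, was lower, at 47.0 ± 4.04 against 99.3 ± 7.17 FPKM (log2 change -1.06 ± 0.09, limma adjusted p = 1.4e-05). Irf9 was at 20.6 ± 2.57 FPKM in Gr_1 (log2 change 0.38, limma adjusted p = 0.0472, or -0.01 and 0.937 with equal sums). Ifnar1, the signalling chain of the type I receptor, was at 14.1 ± 0.646 FPKM in fl and 16.5 ± 0.704 in Gr_1 and was not called (limma adjusted p = 0.058). In KO against Gr_1, 7 pathway genes were higher and 16 lower (67.6%, against 55.7% of all genes). With equal sums 15 were higher and 6 lower (61.8%, against 67.6% of all genes).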

How the data were processed

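The authors deposited 1 column of FPKM values per library for 54532 genes, per the file headers. DESeq2 (version 1.16.1), featureCounts (version 1.5.0-p3) and the builds GRCm38 and mm10 are listed without roles, per the submitters' processing notes. The name of the aligner was not given in the sources used here. Deposited FPKM times the GENCODE M21 exon length gave fragments that were whole within 0.02 for 97.2% to 97.5% of values under 1000 fragments in each library, and for all 342 values of the members. The denominators implied by the values lay between 16.0 and 22.0 M. They were below the recovered total in each Gr_1 library (16.0 against 19.0 M in Gr_1 A). In each fl and KO library they were above it (22.0 against 20.8 M in fl A, 21.7 against 19.7 M in KO B).

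The filter asked for 3 libraries with at least 1 FPKM. A limma model (limma 3.58.1 under R 4.3.3, trended variance) of log2(FPKM + 1) held 1 term per group over all 9 libraries, leaving 6 residual degrees of freedom. All tests are two-sided, with Benjamini-Hochberg adjustment over all 12289 genes. A pseudocount of 1 understates changes of low genes, so folds, which are ratios of mean FPKM, can exceed the fitted change. The procedure was tested on simulated data in which each library was drawn independently. The simulation held no offset shared by the members and no KO library lying between the others. It therefore cannot decide how the fit handles these features. Symbols and gene coordinates came from GENCODE M21 (GRCm38) and promoters from RefSeq. Sums, orders and figures were made with Python 3.11.15, pandas 2.3.3, numpy 2.4.6 and matplotlib 3.10.9.

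The members and lists were chosen with earlier results of these data known. All 9 values were given for members called in any comparison, at most 4 per role, or for the most abundant member of a role without a call. Of the pathway genes, those called in KO against fl and Socs3, Irf9, Irf7, Ifnar1 and Ifngr1 were named, and 1 other gene of that rule is not reported here. The alternatives were a pseudocount of 0.1, no filter, a filter at 5 FPKM, equal sums with and without the 10 most abundant genes, quantile normalization, a block on the library letter, only the 2 groups compared, limma-voom on recovered fragments, and each library left out. Leaving out KO B and KO C together was chosen after seeing the data.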

Additional observations from a re-analysis of the deposited data

How the results depend on the processing

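In Gr_1 against fl, 13 of the 17 called members were called in the same direction in all 19 alternatives, in KO against Gr_1 5 of 18, and in KO against fl 0 of 3. For KO against fl the number of members called was 1 with no filter on low values (2.63%, against 3.45% of all genes). It was 1 with only the 2 groups compared (2.7%, against 6.88%). It was 7 with limma-voom on recovered fragments, which added Dhx58, Zbp1, Mx1 and Gbp3 (18.9%, against 13.2%), and 7 with the library letter as a block (18.9%, against 8.44%). It ranged from 0 without KO C to 6 without KO A as single libraries were left out (4.71% and 9.40% of all genes called in these fits). It was 1 (Rsad2, higher) without KO B and KO C together, where 5.09% of all genes were called and KO A stood alone with its spread taken from the other groups. For pathway genes the range was 6 to 12, and 4 without KO B and KO C. The median over members in KO against fl ranged from -0.34 without KO A to -0.02 without KO B, and was 0.07 without KO B and KO C. In KO against Gr_1 the median over members was -0.55 to -0.20 as single libraries were left out. The medians that moved by more than the spread between libraries were that of Gr_1 against fl with equal sums (-0.27) and 3 of KO against Gr_1. These were -0.0285 with equal sums, -0.197 without KO B, and -0.11 without KO B and KO C. Without these 2 libraries 8 members and 14 pathway genes were called in KO against Gr_1. The number of members called with single libraries left out ranged from 14 to 21 in Gr_1 against fl (37.8% to 56.8%, against 53.9% to 62.6% of all genes). In KO against Gr_1 it ranged from 14 to 23 (37.8% to 62.2%, against 46.3% to 62.2% of all genes). A direction was counted as turned only where at least 1 of the fits compared called the gene. Equal sums turned Adar (-0.0923, limma adjusted p = 0.407), Trim25 (-0.27, 0.0243) and Irf9 (-0.0129, 0.937) in Gr_1 against fl, and Ifnar2 in KO against Gr_1 (0.25, 0.00323). The cause of these moves was not tested.

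Same-letter libraries of different groups did not deviate together over all genes (correlations from -0.06 to 0.14), so the letters were not read as pairs. Over the 37 members alone the correlations were 0.29 to 0.66 between A libraries, 0.52 to 0.75 between B libraries and -0.33 to 0.22 between C libraries. Between libraries of different letters and groups they were 0.08 to 0.56 for A with C, -0.75 to -0.41 for A with B, and -0.62 to 0.15 for B with C. With the replicate block, 0 members were higher and 7 lower in KO against fl (adding Zbp1, Mx1, Bst2 and Ifi35), 14 and 10 in Gr_1 against fl, and 3 and 21 in KO against Gr_1, or 18.9%, 64.9% and 64.9% of members, against 8.44%, 59.2% and 52.6% of all genes.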
